A study of Homo sapiens with 3 samples.

Results

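The genes described here were 10 genes of the endoplasmic reticulum (ER) and its stress response, of 44591 genes in the deposited table. They were chosen by name, as the rows for *HSPA5*, *HSP90B1*, *CALR*, *PDIA4*, *SDF2L1*, *CRELD2*, *HERPUD1*, *XBP1*, *ATF6* and *ERN1*. The rule itself uses no measured value, but the genes were chosen with earlier results of these data known. Each name matched 1 row, and all 10 are protein-coding. RNA-seq was done in Caki-1 cells, an established human clear cell renal carcinoma line described in the methods as carrying wild-type p53. The cells received either si-Control, a non-targeting siRNA, or an siRNA against *RBCK1*, the gene of the ubiquitin ligase subunit HOIL-1, of which there were 2 (si-RBCK1 #1 and si-RBCK1 #2). The labels name these si-HOIL-1#1 and si-HOIL-1#2. The methods give 48 h between transfection and RNA extraction and, in the general transfection paragraph, 10 nmol/L siRNA. Each of the 3 conditions had 1 library, so replicate error is unknown and no test between conditions was possible. The siRNAs were kept apart, without averaging, and both were compared with the same si-Control library.

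Secreted and membrane proteins fold in the ER with the help of lumenal chaperones and of enzymes that form disulfide bonds. When unfolded proteins build up, they are sensed by the membrane proteins ATF6, IRE1 (encoded by *ERN1*) and PERK (encoded by *EIF2AK3*). Activated IRE1 splices *XBP1* mRNA, ATF6 is cut in the Golgi to free a transcription factor, and PERK phosphorylates the initiation factor eIF2alpha and so favors translation of ATF4. XBP1 and ATF6 then raise chaperone and ER-associated degradation genes through ER stress response elements, short promoter sequences that also bind the CCAAT factor NF-Y. A gene-level table measures the total mRNA of each gene. It does not show *XBP1* splicing, ATF6 cleavage or the activity of any sensor.

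The promoters are shown first, because the shared element is what ties most of these genes together and because the genes that carry it had very different log2 ratios. The 250 bases before each start site were taken from RefSeq (GRCh38.p14), in which all 10 genes had an entry and *PDIA4* and *XBP1* had 2 start sites each. These positions are not comparable with those of the deposited table, whose build is hg19 in the submitters' processing notes. The ER stress response element (ERSE, CCAAT and CCACG with any 9 bases between them) was searched for on both strands and found in 5 of the 10 genes, *HSPA5*, *HSP90B1*, *CALR*, *CRELD2* and *XBP1*. It was found in 26 of 35116 such windows over all genes (0.074%). In *XBP1* only 1 of the 2 start sites had the element before it. The second type (ERSE-II, ATTGG and CCACG with any 1 base between them) was found in *SDF2L1* and *HERPUD1*, and in 18 of the 35116 windows (0.0513%). Each ERSE contains the CCAAT box (CCAAT), which occurred in 9 of the 10 genes and in 32% of all windows, and the ERSE-II contains it in reverse. *PDIA4*, *ATF6* and *ERN1* held neither element in these windows, and UPRE (TGACGTGG) was in none of the 10 genes and in 0.612% of all windows. All window counts include the windows of the 10 genes. These genes were named as part of the response that the elements serve, so the shares are descriptive and enrichment was not tested. A match describes the letters only and does not show that a factor binds. The stretches below run 5′ to 3′ on the gene's own strand with the element in capitals, and they are limited to bases around the element that no GENCODE v29 exon covers. In *CALR*, *SDF2L1* and *CRELD2* the element lies in reverse orientation, so its capitals start with CGTGG.
SDF2L1 (chr22:21642052-21642260, plus strand): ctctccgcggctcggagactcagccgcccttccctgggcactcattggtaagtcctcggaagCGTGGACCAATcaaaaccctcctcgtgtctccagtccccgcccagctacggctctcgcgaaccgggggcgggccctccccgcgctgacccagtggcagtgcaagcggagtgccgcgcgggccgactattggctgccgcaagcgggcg
CRELD2 (chr22:49918459-49918633, plus strand): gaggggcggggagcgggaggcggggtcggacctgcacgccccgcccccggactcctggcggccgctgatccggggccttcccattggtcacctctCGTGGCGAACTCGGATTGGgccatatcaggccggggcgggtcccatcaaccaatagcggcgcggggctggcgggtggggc
CALR (chr19:12938359-12938577, plus strand): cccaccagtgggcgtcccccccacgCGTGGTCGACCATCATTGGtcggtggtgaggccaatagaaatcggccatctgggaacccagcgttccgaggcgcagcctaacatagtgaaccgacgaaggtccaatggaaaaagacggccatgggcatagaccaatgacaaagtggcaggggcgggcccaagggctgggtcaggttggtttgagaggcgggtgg
HSPA5 (chr9:125241344-125241593, minus strand): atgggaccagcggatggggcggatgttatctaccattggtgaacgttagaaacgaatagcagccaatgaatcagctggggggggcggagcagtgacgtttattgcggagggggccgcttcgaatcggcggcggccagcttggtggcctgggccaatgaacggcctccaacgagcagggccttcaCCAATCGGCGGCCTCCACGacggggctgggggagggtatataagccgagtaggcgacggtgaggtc
HERPUD1 (chr16:56931892-56932047, plus strand): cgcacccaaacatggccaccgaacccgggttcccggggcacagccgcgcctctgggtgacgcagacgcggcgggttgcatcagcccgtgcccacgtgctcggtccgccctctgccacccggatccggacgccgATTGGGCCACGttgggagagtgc
XBP1 (chr22:28800598-28800682, minus strand): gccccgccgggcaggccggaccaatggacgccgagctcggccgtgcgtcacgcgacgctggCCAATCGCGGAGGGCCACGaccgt
In *HSP90B1* both elements lie where some transcripts already have an exon, so the elements alone are shown, the second in reverse orientation.
HSP90B1 site 1 (chr12:103930216-103930234, plus strand): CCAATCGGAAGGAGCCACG
HSP90B1 site 2 (chr12:103930321-103930339, plus strand): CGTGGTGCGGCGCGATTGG

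**Figure D1:**
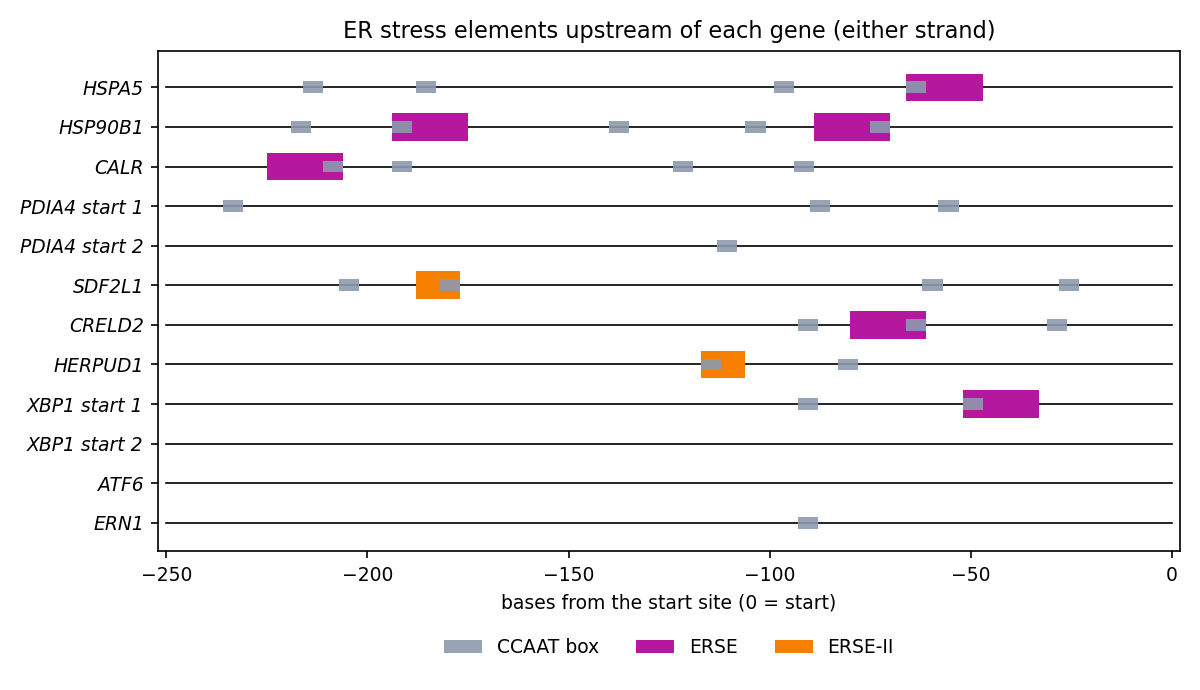
Positions of the ERSE (purple), the ERSE-II (orange) and the CCAAT box (grey) within 250 bases upstream of each RefSeq start site, on either strand, with the distance from the start site in bases on the x axis and 1 line per start site. The ERSE lies 66 to 48 bases upstream in *HSPA5* and 225 to 207 bases upstream in *CALR*, and *HSP90B1* holds 2. Only exact matches were counted, so sequences close to the ERSE are not shown.

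As a check of the labels, the level of *RBCK1* in RPKM (reads per kilobase of gene and per 1000000 reads of the library) was 33.3 in the si-Control library, 9.97 in the si-RBCK1 #1 library and 12.3 in the si-RBCK1 #2 library. The log2 ratios, which throughout are differences of log2(RPKM + 1), were -1.65 and -1.37. The libraries were scaled by 36344428 to 40442939 reads, found from the steps between low RPKM values, and 12263 to 12473 genes were at 1 RPKM or more. Of 14 renal epithelial markers, 6 had a mean of at least 1 RPKM, and they did not differ from the control in 1 direction. In the si-Control, si-RBCK1 #1 and si-RBCK1 #2 libraries, *PAX8* was at 124, 82.5 and 107 RPKM and *CDH2* at 24.5, 17.7 and 15.9 RPKM. *VIM* was at 664, 1512 and 1392 RPKM, *KRT8* at 65.6, 172 and 238 RPKM and *KRT18* at 95.3, 142 and 172 RPKM. The sum over the 14 markers was 996, 1947 and 1953 RPKM, most of it *VIM*, and its part in the results below was not tested. *CA9*, a common marker of clear cell tumors, and the proximal tubule genes *LRP2* and *AQP1* were at 0.0636 RPKM or less in every library. The summed level of 4 leukocyte markers was at most 0.344 RPKM and that of 3 endothelial markers at most 0.059 RPKM. Of 4 fibroblast markers 1 passed the same limit, *COL1A1*, and their sum was 3.91 to 5.53 RPKM.

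The 10 genes spanned a wide range of levels, and the order among them was not the same with the siRNAs as with si-Control. With si-Control the order was *HSPA5*, *CALR*, *HSP90B1*, *PDIA4*, *HERPUD1*, *XBP1*, *ATF6*, *ERN1*, *SDF2L1* and *CRELD2*, from 804 RPKM to 6.56 RPKM. The last 3 were not separated beyond counting error, since the 95% interval was 6.89 to 7.77 RPKM for *ERN1*, 5.97 to 7.81 RPKM for *SDF2L1* and 5.95 to 7.22 RPKM for *CRELD2*. With both siRNAs *CALR* was highest, followed by *HSPA5*, and *SDF2L1* and *CRELD2* stood above *ATF6* and *ERN1*. With si-RBCK1 #1 these 4 were at 26.0, 14.8, 11.7 and 7.04 RPKM, with intervals that did not overlap. All intervals here and below are exact for the read numbers used and cover counting error only. Those read numbers are the smallest whole reads that give the RPKM values. Where the true numbers are a multiple of them, the intervals are too wide.

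The 10 genes took 0.648% of the reads with si-Control (239302 reads, Clopper-Pearson interval 0.645% to 0.651%), 0.684% with si-RBCK1 #1 (0.682% to 0.687%) and 0.755% with si-RBCK1 #2 (0.753% to 0.758%). The share of *HSPA5* among these reads was 49.3% (49.1% to 49.5%), 38.5% (38.3% to 38.7%) and 38.5% (38.3% to 38.7%) in the same order. The group as a whole was thus somewhat more abundant with either siRNA, while its leading gene made up less of it. In bulk RNA, a change in the level per cell and a change in which cells are present cannot be told apart.

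**Figure D2:**
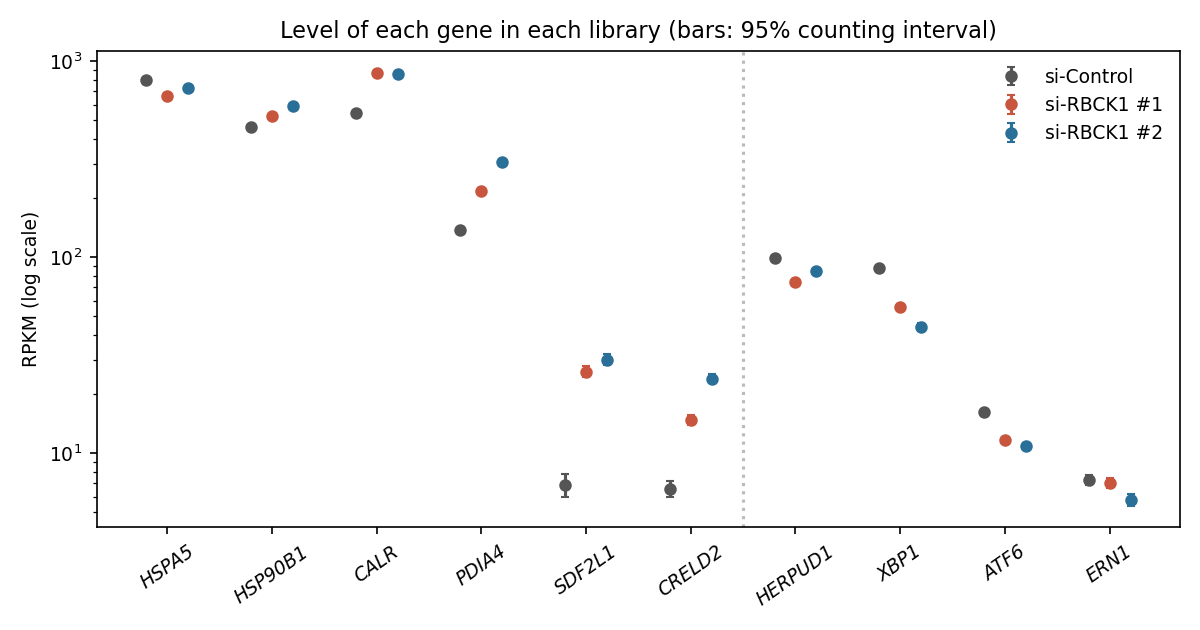
RPKM (log scale) of each gene in the si-Control (grey), si-RBCK1 #1 (red) and si-RBCK1 #2 (blue) libraries, 1 point per library, with bars for the 95% counting interval; the dotted line separates lumenal chaperones and folding factors (left) from degradation and signaling genes (right). *SDF2L1* and *CRELD2* stand far above si-Control with both siRNAs, and *XBP1* and *ATF6* stand below it.

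At a limit of 1.5-fold on the log2(RPKM + 1) scale, 4 of the 10 genes were higher and 1 was lower with si-RBCK1 #1. Among all 12403 genes that averaged 1 RPKM or more, 12.1% were at least 1.5-fold higher and 11.6% at least 1.5-fold lower in this comparison. With si-RBCK1 #2, 4 were again higher and 1 lower, beside 11.3% and 9.32% of all genes. The higher genes were *SDF2L1*, *CRELD2*, *CALR* and *PDIA4* in each comparison and the lower gene was *XBP1*, and the comparisons share the si-Control library. All 10 genes passed the filter on low values. Because the genes were chosen with earlier results of these data known, the counts are descriptive. The median log2 ratio over the 10 was 0.07 with si-RBCK1 #1 and 0.11 with si-RBCK1 #2, beside 0.02 and 0.03 over all genes tested. With libraries scaled to equal totals these medians were 0.012 and 0.07, with equal medians 0.06 and 0.06, and the means over the 10 were 0.25 and 0.37. At 2-fold, 2 of the 10 were higher with si-RBCK1 #1 and 3 with si-RBCK1 #2, beside 2.91% and 2.5% of all genes, and 0 were lower, beside 3.27% and 2.27%. At a limit of 25%, 4 and 5 were higher, beside 25.8% and 25.9% of all genes, and 3 and 2 were lower, beside 24.3% and 20.8%. The 6 lumenal genes had medians of 0.67 and 0.90, and the 4 degradation and signaling genes had medians of -0.42 and -0.41. This split by function was not planned and was made with earlier results of these data known. The difference between these groups was not tested.

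**Figure D3:**
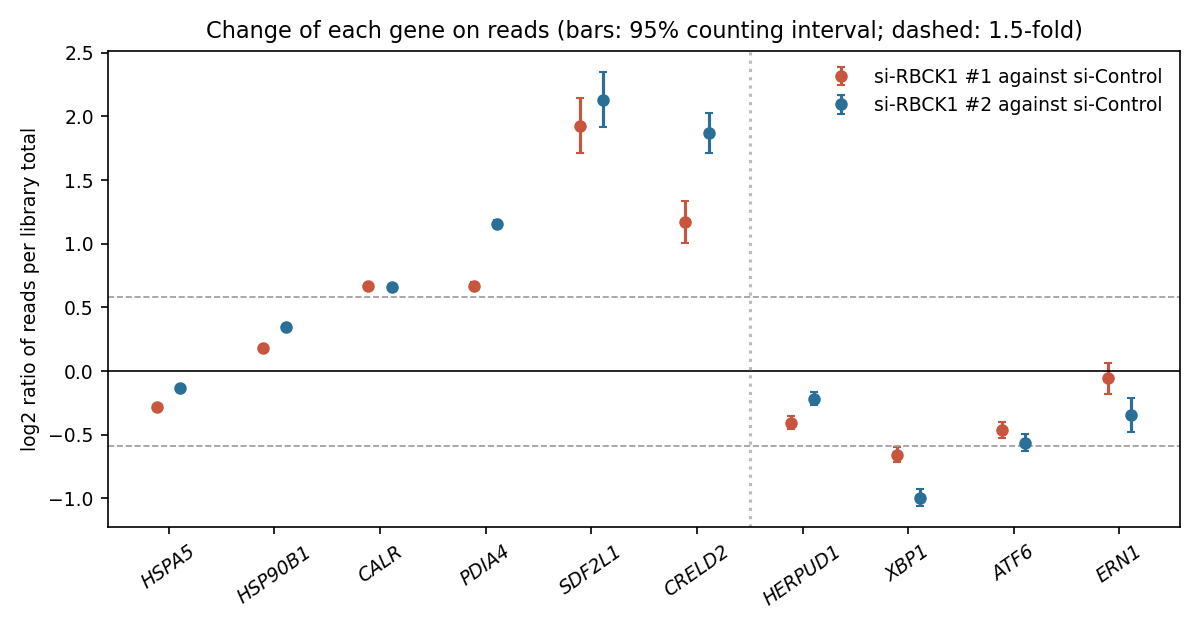
Log2 ratio of reads, each scaled by its library total, for si-RBCK1 #1 (red) and si-RBCK1 #2 (blue) against the same si-Control library, with bars for the 95% counting interval and dashed lines at 1.5-fold. Of the 6 lumenal genes left of the dotted line, *HSPA5* alone lies below 0, and the 4 genes to its right lie below 0 with both siRNAs, with the interval of *ERN1* for si-RBCK1 #1 reaching across 0.

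Among the lumenal genes the largest differences were in the least abundant ones. *SDF2L1* encodes a small lumenal protein that works with the HSPA5 chaperone and its J-domain partners. In the table's coordinates it lies at chr22:21996542-21998588 (hg19, plus strand). It had 221 reads in the si-Control library (6.85 RPKM), 919 in the si-RBCK1 #1 library (26.0 RPKM) and 950 in the si-RBCK1 #2 library (29.9 RPKM). Both siRNA libraries were high, and on reads si-RBCK1 #2 was 1.15-fold above si-RBCK1 #1 (log2 interval 0.07 to 0.33). The log2 ratios were 1.78 and 1.98, and on reads without the pseudocount *SDF2L1* was 3.80-fold and 4.37-fold the control level, with log2 intervals of 1.71 to 2.14 and 1.91 to 2.34. Of all genes tested, 99.6% and 99.9% had a lower log2 ratio.

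*CRELD2*, a secreted and ER-resident protein with disulfide isomerase activity, lies at chr22:50312278-50321188 (hg19, plus strand). It had 418 reads in the si-Control library (6.56 RPKM), 1030 in the si-RBCK1 #1 library (14.8 RPKM) and 1502 in the si-RBCK1 #2 library (24.0 RPKM). The 3 libraries were well apart, with si-RBCK1 #2 highest. The log2 ratios were 1.06 and 1.72. On reads, the intervals were 1.00 to 1.34 and 1.71 to 2.03, and si-RBCK1 #2 was 1.62-fold above si-RBCK1 #1 (log2 interval 0.58 to 0.81). *CRELD2* shares its promoter with *ALG12*, a mannosyltransferase gene of N-glycan assembly that runs the other way. Their RefSeq start sites are separated by 195 bases, and the same ERSE lies between them. *ALG12* was at 3.85, 3.45 and 4.55 RPKM in the 3 libraries. Its log2 ratios were -0.13 and 0.19, with intervals on reads of -0.38 to 0.06 and 0.03 to 0.45.

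*PDIA4*, a protein disulfide isomerase found in complexes with HSPA5, lies at chr7:148700154-148725782 (hg19, minus strand). It had 14935 reads in the si-Control library (137 RPKM), 25992 in the si-RBCK1 #1 library (218 RPKM) and 32776 in the si-RBCK1 #2 library (305 RPKM). As with *CRELD2*, the libraries were apart and si-RBCK1 #2 was highest. The log2 ratios were 0.66 and 1.15, with intervals on reads of 0.64 to 0.70 and 1.13 to 1.18, and si-RBCK1 #2 was 1.40-fold above si-RBCK1 #1. *CALR* encodes calreticulin, a lectin chaperone that holds newly made glycoproteins and binds calcium. It lies at chr19:13049414-13055304 (hg19, plus strand). It had 38539 reads in the si-Control library (546 RPKM), 67145 in the si-RBCK1 #1 library (869 RPKM) and 59799 in the si-RBCK1 #2 library (861 RPKM). Here the siRNA libraries did not differ beyond counting error, with a log2 ratio of si-RBCK1 #2 to si-RBCK1 #1 of -0.01 (interval -0.03 to 0.0029). Against si-Control the log2 ratios were 0.67 and 0.66.

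The remaining lumenal chaperones, *HSP90B1* and *HSPA5*, did not reach 1.5-fold with either siRNA. *HSP90B1* encodes GRP94, the HSP90 of the ER, which folds integrins and Toll-like receptors. It lies at chr12:104324112-104341708 (hg19, plus strand). It had 48750, 60519 and 61124 reads, or 461, 523 and 588 RPKM, with si-Control, si-RBCK1 #1 and si-RBCK1 #2. The log2 ratios were 0.18 and 0.35, above 0 beyond counting error. *HSPA5* encodes BiP, the HSP70 of the ER, which also keeps the sensors inactive in unstressed cells. It lies at chr9:127997127-128003666 (hg19, minus strand). It had 117917, 106434 and 105717 reads, or 804, 663 and 733 RPKM in the same order. Its log2 ratios were -0.28 and -0.13, with intervals on reads of -0.29 to -0.27 and -0.15 to -0.12. Both siRNA libraries were thus slightly below si-Control in *HSPA5*, a widely used marker of the unfolded protein response, while *SDF2L1* and *PDIA4* were above si-Control.

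All 4 degradation and signaling genes had lower values with each siRNA, and *XBP1* was the only one of them past 1.5-fold. *XBP1*, which encodes the transcription factor made active by IRE1 splicing, lies at chr22:29190548-29196560 (hg19, minus strand). It had 5920 reads in the si-Control library (88.1 RPKM), 4112 in the si-RBCK1 #1 library (55.9 RPKM) and 2927 in the si-RBCK1 #2 library (44.3 RPKM). The 3 libraries were apart, with si-RBCK1 #2 lowest. The log2 ratios were -0.65 and -0.98, with intervals on reads of -0.71 to -0.60 and -1.06 to -0.93, and 9.60% and 2.42% of all genes tested had a lower ratio.

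*ATF6* (chr1:161736034-161933860 in hg19, plus strand) had 4499 reads in the si-Control library (16.1 RPKM), 3574 in the si-RBCK1 #1 library (11.7 RPKM) and 2997 in the si-RBCK1 #2 library (10.9 RPKM). Its log2 ratios were -0.43 and -0.52. *HERPUD1* encodes an ER membrane protein that helps bring misfolded proteins to the ubiquitin ligases of ER-associated degradation, and lies at chr16:56966002-56977793 (hg19, plus strand). It had 7020, 5804 and 5945 reads, or 98.9, 74.7 and 85.1 RPKM in the same order, with log2 ratios of -0.40 and -0.21. Its promoter window was the only one of the 10 that also held the core of the amino acid response element bound by ATF4 (TGATGCAA), in reverse, as did 0.772% of all windows. *ERN1* (chr17:62120390-62207502 in hg19, minus strand) had 1083, 1141 and 840 reads, or 7.32, 7.04 and 5.77 RPKM. Its log2 ratios were -0.05 and -0.30, and on reads the interval included 0 for si-RBCK1 #1 (-0.18 to 0.07) and not for si-RBCK1 #2 (-0.48 to -0.21).

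**Figure D4:**
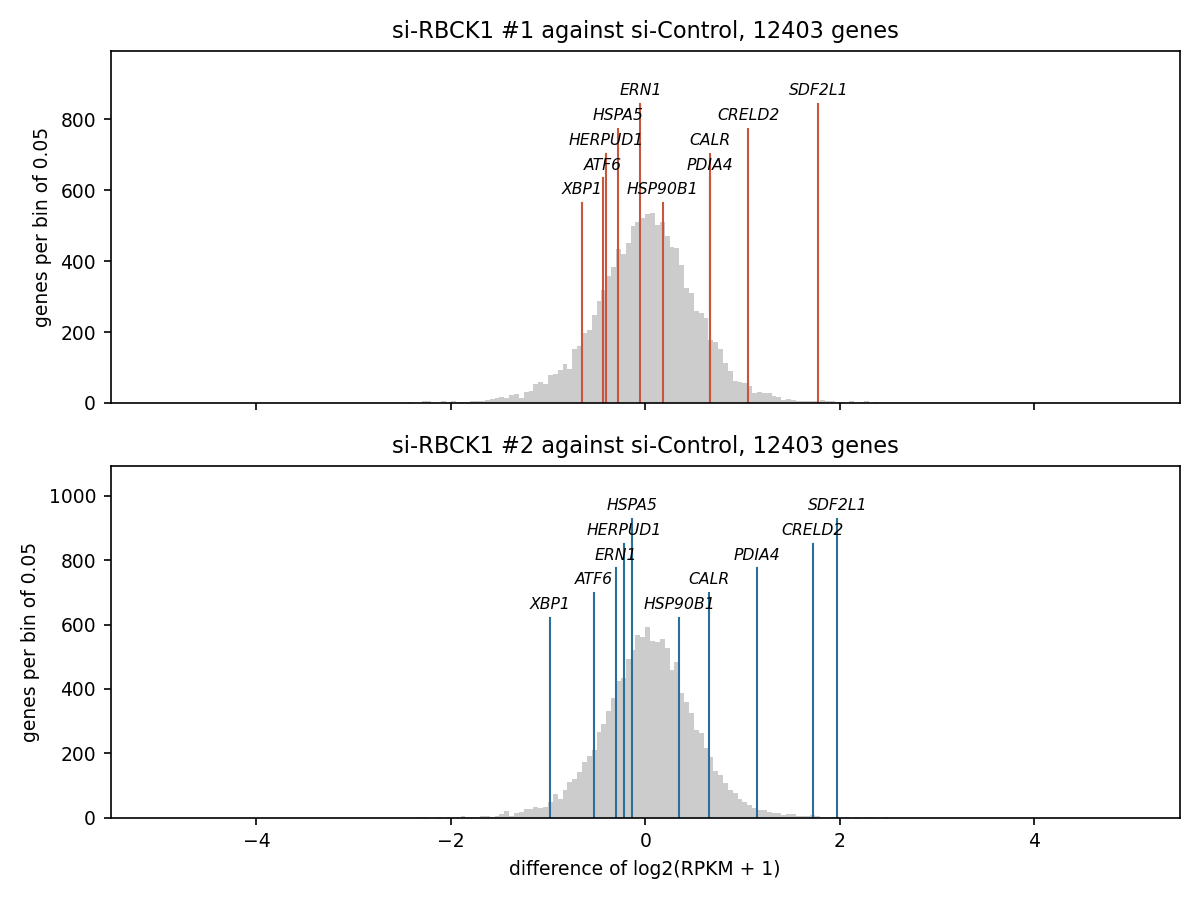
Distribution of the difference of log2(RPKM + 1) over 12403 genes for si-RBCK1 #1 (upper panel) and si-RBCK1 #2 (lower panel) against si-Control, in grey, with a colored line for each of the 10 genes; the height of a line has no meaning. *SDF2L1* and *CRELD2* lie in the right tail of both panels, and *HSPA5*, *HERPUD1* and *ERN1* lie within the body.

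The 7 genes with an ERSE or ERSE-II therefore covered the whole range seen among the 10. From the highest to the lowest with si-RBCK1 #1 they were *SDF2L1*, *CRELD2*, *CALR*, *HSP90B1*, *HSPA5*, *HERPUD1* and *XBP1*, with the log2 ratios given above. The ERSE-II genes, *SDF2L1* and *HERPUD1*, lay on opposite sides of 0.

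Reads from neighboring genes were examined in the table's coordinates. Of 14 genes that overlap one of the 10 or start within 5000 bases of either end, 5 passed the filter. Among them were *ALG12* beside *CRELD2*, *FARSA* beside *CALR*, and a pair of genes annotated as sense intronic within *HERPUD1*. *FARSA*, a tRNA synthetase subunit gene upstream of *CALR*, had log2 ratios of 0.02 and 0.10. The 5 genes that overlap a member are 2 microRNAs, 1 antisense gene and the 2 intronic genes, of which only the intronic genes were above 0 RPKM, at 1.34 to 2.43 RPKM. The sources used here do not state whether strand was used in counting.

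Each of the 10 genes has relatives that work in the same or another compartment, and several are given here. They were named after their values were seen. *SDF2*, the paralog of *SDF2L1*, was at 14.7, 23.9 and 22.4 RPKM in the si-Control, si-RBCK1 #1 and si-RBCK1 #2 libraries, so *SDF2L1* was the lower of the pair with si-Control and the higher with si-RBCK1 #2. With si-RBCK1 #1 their counting intervals overlapped (24.3 to 27.7 RPKM for *SDF2L1* and 22.8 to 25.2 RPKM for *SDF2*). *CRELD1* was at 2.69, 2.88 and 3.86 RPKM, below *CRELD2* in every library. *CANX*, which encodes the membrane-bound relative of calreticulin, was at 423, 453 and 442 RPKM, with log2 ratios of 0.10 and 0.06. *PDIA3* and *PDIA6* had log2 ratios of 0.22 and 0.26 and of 0.16 and 0.23. *HERPUD2* was at 13.7, 9.83 and 7.34 RPKM, lower with both siRNAs as was *HERPUD1*. *ATF6B* was at 20.4, 17.7 and 21.7 RPKM, with log2 ratios of -0.19 and 0.09, and *EIF2AK3* was at 5.42, 5.28 and 6.68 RPKM, with log2 ratios of -0.03 and 0.26.

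The cytosolic relatives of *HSPA5* and *HSP90B1* had log2 ratios on both sides of 0. *HSPA8*, the constitutive HSP70 of the cytosol, had 250 RPKM in the control library and 822 and 846 RPKM with siRNA #1 and #2, so it stood below *HSPA5* in the control and above it with both siRNAs. *HSP90AA1* was at 185, 653 and 594 RPKM in the same order, below *HSP90B1* in the control and above it with si-RBCK1 #1, while with si-RBCK1 #2 the counting intervals of these genes overlapped (587 to 600 RPKM for *HSP90AA1* and 583 to 592 RPKM for *HSP90B1*). *HSPA4*, an HSP110-type relative, had -0.25 and -0.39. The stress-inducible HSP70 genes *HSPA1A* (-0.0028 and -0.22) and *HSPA1B* (-0.39 and -0.20) are nearly identical. Reads that match both may be split between them or left uncounted. These 3 genes were named after their values were seen. Of 24 cytosolic and mitochondrial chaperone genes, 10 were at least 1.5-fold higher and 0 lower with si-RBCK1 #1, beside 12.1% and 11.6% of all genes. With si-RBCK1 #2, 11 were higher and 1 lower, the mitochondrial HSP70 gene *HSPA9* (-0.77), beside 11.3% and 9.32%. Their medians were 0.52 and 0.48, beside 0.02 and 0.03 over all genes. *DNAJA1* had log2 ratios of 1.04 and 0.92, *HSPH1* 0.82 and 0.79, and *HSPE1*, the mitochondrial HSP10, 1.21 and 1.18. *HSP90AB1*, the most abundant on the list, had 1.04 and 0.77.

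For the rest of the pathway, lists were written from general knowledge, with earlier results of these data known and without the 10 genes. The list of other ER folding factors held 41 genes, all of which passed the filter. With si-RBCK1 #1, 5 were at least 1.5-fold higher and 7 lower, with a median of 0.07, and with si-RBCK1 #2, 2 were higher and 5 lower, with a median of 0.17. Of all genes, 12.1% were higher and 11.6% lower with si-RBCK1 #1, and 11.3% and 9.32% with si-RBCK1 #2. *TXNDC5*, a disulfide isomerase, had log2 ratios of 1.27 and 1.35 at 2.61 RPKM in the control, and *P4HB*, the most abundant on the list at 682 RPKM, had 0.24 and 0.49. *TXNDC12*, a thioredoxin-like ER protein, had -0.71 and -1.63, *DNAJC1* -1.06 and -0.84, *CDNF* -0.95 and -0.94, and *HSPA13* -0.62 for each siRNA.

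Of 29 genes of ER-associated degradation, 28 were found in the table and 27 passed the filter. With si-RBCK1 #1, 2 were higher and 1 lower (median 0.16), or 7.41% and 3.70%, beside 12.1% and 11.6% of all genes. With si-RBCK1 #2, 3 were higher and 2 lower (median 0.03, or -0.016 with libraries scaled to equal medians), or 11.1% and 7.41%, beside 11.3% and 9.32%. *VCP*, the ATPase that pulls proteins out of the ER membrane, was at 71.3, 173 and 158 RPKM (log2 ratios 1.27 and 1.14). Its cofactor *UFD1L* had log2 ratios of 0.94 and 0.75, and the partner of UFD1L, *NPLOC4*, had 0.44 and 0.34. Of 32 genes of ER entry and N-glycosylation, 4 were higher and 1 lower with si-RBCK1 #1 (median 0.18), or 12.5% and 3.13%, beside 12.1% and 11.6% of all genes. With si-RBCK1 #2, 0 passed the limit in either direction (median 0.07), beside 11.3% and 9.32%. *SEC61A1*, the channel subunit and the most abundant of them, had log2 ratios of 0.25 and 0.43.

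Of 18 other sensor and signal processing genes, 16 passed the filter. With si-RBCK1 #1, 2 were higher and 3 lower, beside 12.1% and 11.6% of all genes, and with si-RBCK1 #2, 1 was higher and 1 lower, beside 11.3% and 9.32%. The medians were -0.0042 and 0.12, and the first was 0.024 when genes had to average 5 RPKM. *TMBIM6*, the most abundant on the list, had log2 ratios of 0.23 and 0.16. *MBTPS2*, which encodes the second of the Golgi proteases that cut ATF6, was at 18.9, 10.9 and 11.3 RPKM (log2 ratios -0.74 and -0.70), while *MBTPS1*, which encodes the first, had log2 ratios of 0.33 and 0.29. *WFS1*, which encodes an ER membrane protein that restrains ATF6, had 0.75 and 0.88. Among the subunits of NF-Y, which binds the CCAAT part of the ERSE, *NFYB* had -0.73 and -0.57, *NFYC* -0.48 and -0.51, and *NFYA* 0.02 for each siRNA. *MBTPS1* and the NF-Y subunits were named after their values were seen.

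Of 18 genes of the PERK and ATF4 branch, 12 were at least 1.5-fold lower and 1 higher with si-RBCK1 #1, beside 11.6% and 12.1% of all genes. With si-RBCK1 #2, 13 were lower and 1 higher, beside 9.32% and 11.3%. The medians of the branch were -0.98 and -0.90, beside 0.02 and 0.03 over all genes. The PERK gene *EIF2AK3* is not on this list (log2 ratios -0.03 and 0.26). PERK activity was not measured, and its part in these values was not tested. *STC2*, a secreted glycoprotein, was at 353, 72.1 and 79.3 RPKM (log2 ratios -2.28 and -2.14). *ASNS*, asparagine synthetase, had -1.40 and -1.71, *TRIB3* -1.48 and -1.25, *SLC7A11*, the cystine transporter, -1.47 and -1.32, and *NUPR1* -1.44 and -1.43. *DDIT3*, which encodes the transcription factor CHOP, was at 117, 59.8 and 76.4 RPKM (log2 ratios -0.96 and -0.61), and *ATF4* itself had -0.28 and -0.48. *ATF5* was the 1 gene that was higher, with 0.69 and 0.81. Log2 ratios of opposite sign were found for *SESN2* (0.45 and -0.20), *CEBPB* (-0.14 and 0.27) and *PPP1R15B* (-0.09 and 0.14). *DDIT3*, *ATF4* and the genes after them were named after their values were seen.

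**Figure D5:**
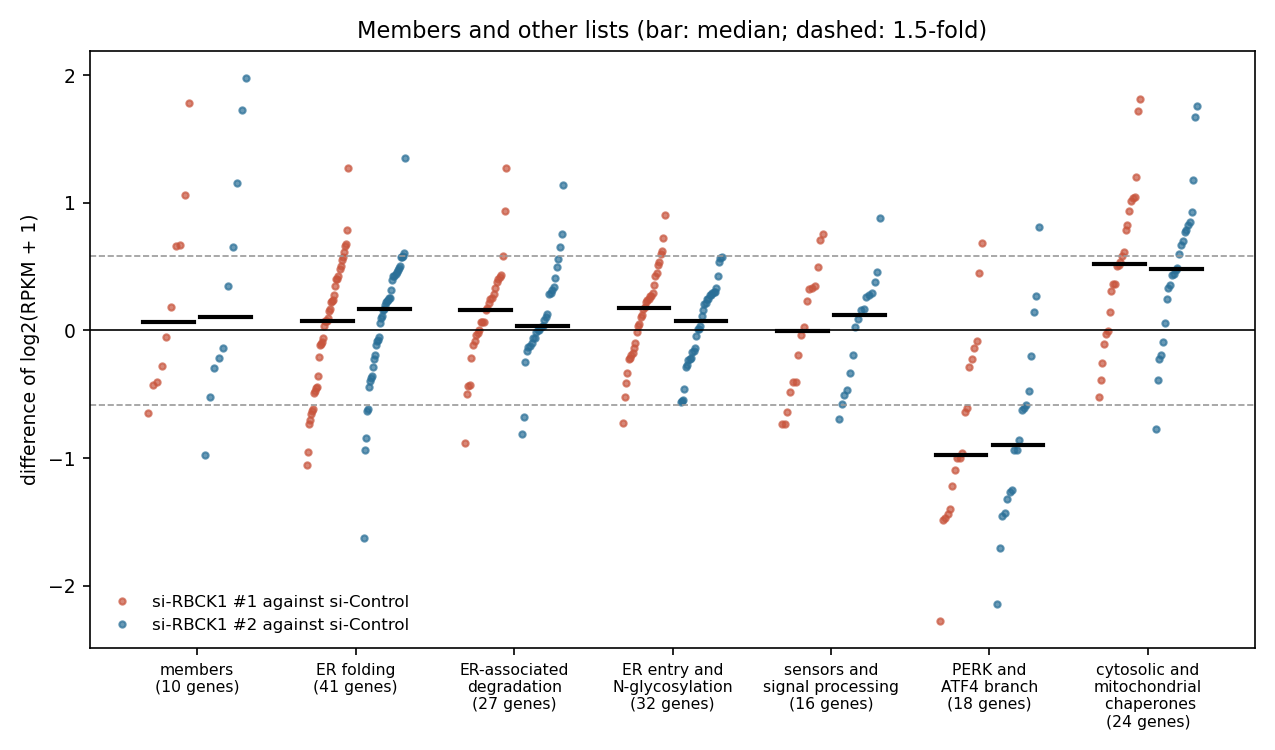
Difference of log2(RPKM + 1) against si-Control for each gene that passed the filter, in the 10 genes described here (members) and in 6 other lists, with red points for si-RBCK1 #1, blue points for si-RBCK1 #2, black bars for medians and dashed lines at 1.5-fold. The medians of the PERK and ATF4 branch lie at -0.98 and -0.90, and those of the cytosolic and mitochondrial chaperones at 0.52 and 0.48.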

How the data were processed

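The authors deposited 1 table with an RPKM value for each gene and library, in which reads are divided by the length of the gene and the size of the library. The submitters' processing notes name FastQC, Trimmomatic, TopHat2, HTSeq and hg19, and the gene annotation is not given in the sources used here. The labels describe ribosomal RNA removal, a directional kit and Illumina paired-end sequencing, while the methods name the platform of the Beijing Genomic Institute. The authors' own means, fold changes, p-values and q-values in the table were not used.

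Log2 ratios were computed from RPKM with a pseudocount of 1 RPKM, which understates the change of low genes, for the 12403 genes averaging 1 RPKM or more. Library totals were found from genes of up to 200 nt, and the smallest whole reads that give the 3 RPKM values were searched at lengths of up to 50000 nt with a tolerance of 0.001 reads. Whole reads were found for all 10 genes and for 158 of 158 genes of the other lists that passed the filter. Exact Clopper-Pearson intervals (95%) cover counting error only. The si-Control entry of 1 gene is not a number, and that gene was left out. Genes named from the lists are those past 1.5-fold in the same direction with both siRNAs, up to 5 per list, and the most abundant of each list, with genes near a member that passed the filter. Some genes that this rule or the marker lists name are not reported here. Paralogs, pathway partners and genes with an ERSE were named outside this rule after their values were seen. The genes and lists were chosen with earlier results of these data known. Alternatives were pseudocounts of 0.1 and 5 RPKM, other filters, other scalings, reads without a pseudocount, other limits and means. The steps were tested on simulated data. Scripts ran in Python 3.11.15 with scipy 1.17.1, pandas 2.3.3, numpy 2.4.6 and, for plots, matplotlib 3.10.9.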

Additional observations from a re-analysis of the deposited data

Results flagged for a closer look

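*ERO1A*, the oxidase that recharges disulfide isomerases, lay below the control with one siRNA and above it with the other. Its level was 17.1 RPKM in the control library, 9.91 RPKM for si-RBCK1 #1 and 19.8 RPKM for si-RBCK1 #2, which gives -0.73 and 0.20 as log2 ratios. On reads, the log2 ratio of si-RBCK1 #2 to si-RBCK1 #1 was 1.00 with a counting interval of 0.92 to 1.07. The difference was not tested, since there was 1 library per siRNA. None of the 10 genes described in the report had opposite signs with the siRNAs.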

How the results depend on the processing

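No paired analysis was possible because no condition had more than 1 library, and for the same reason no library could be left out. At a limit of 2-fold, 2 of the 10 genes were higher with si-RBCK1 #1 (3 with si-RBCK1 #2) and 0 were lower with either. At a limit of 25%, 3 and 2 were lower, while 4 and 5 were higher. Under the other pseudocounts, filters and scalings and on reads, the counts stayed at 4 higher and 1 lower. The filters could not change these counts, because each of the 10 genes averaged more than 5 RPKM. The median of ER-associated degradation with si-RBCK1 #2 (0.03) turned to -0.016 with libraries scaled to equal medians. That of the sensors with si-RBCK1 #1 (-0.0042) turned to 0.024 when genes had to average 5 RPKM and to 0.0047 with no filter. *RBCK1* moved to -1.73 and -1.36 with si-RBCK1 #1 at pseudocounts of 0.1 and 5 RPKM, to -1.74 on reads, and to -1.15 with si-RBCK1 #2 at 5 RPKM. These 4 settings for *RBCK1* differ from the main one only in the pseudocount, which was changed or left out. The cause of the changed sign of the medians was not tested. Of 140 log2 ratios of the 10 genes under these alternatives, 120 stayed within counting error of the reported value, 20 moved beyond it and 0 changed sign. The 120 include every ratio under the other filters, which cannot alter the ratio of a single gene. Scaling left the median of all genes between -0.03 and 0.01. Counting error limits *SDF2L1*, *CRELD2* and *ERN1* most, and biological replicate error is unknown for every gene.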

Other observations

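Outside the 10 genes, 22 other genes with an ERSE or ERSE-II in the 250 bases before a RefSeq start site passed the filter, and they were listed without regard to function. Of these, 2 were at least 1.5-fold higher and 1 lower with si-RBCK1 #1, beside 12.1% and 11.6% of all genes. With si-RBCK1 #2, 4 were higher and 2 lower, beside 11.3% and 9.32%. The medians were 0.15 and 0.20, beside 0.02 and 0.03 over all genes. *HYOU1*, an ER chaperone that resets HSPA5, was at 54.3, 69.5 and 83.0 RPKM with si-Control, si-RBCK1 #1 and si-RBCK1 #2 (log2 ratios 0.35 and 0.60). *SERP1*, which encodes a protein that stabilizes membrane proteins during ER stress, had log2 ratios of 0.22 and 0.20. *FICD*, which encodes the enzyme that AMPylates HSPA5, was at 6.74, 6.66 and 8.23 RPKM (log2 ratios -0.01 and 0.25), and *ERO1B* had -0.35 and -0.11. *TRIM5*, an antiviral factor, was at 9.03, 17.3 and 15.2 RPKM (log2 ratios 0.86 and 0.70), and *NAV2* was at 4.79, 1.18 and 2.00 RPKM (log2 ratios -1.41 and -0.95). These genes were named after their values were seen.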
